A study of Mus musculus with 4 samples.

Results

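The 10 genes described here encode the synaptonemal complex and the meiotic HORMA domain proteins: Sycp1, Sycp2, Sycp3, Syce1, Syce2, Syce3, Tex12, 4930447C04Rik (the mouse gene for SIX6OS1), Hormad1 and Hormad2. They were taken by gene name from a table of 55421 genes, before any filter, and all 10 passed the filter on low counts that left 20232 genes for testing. Transcripts were sequenced from spermatogonial stem cell (SSC) cultures of the CD1 background, established from testes of pups 6 days old and grown on irradiated mouse embryonic fibroblast (MEF) feeder cells with bFGF and GDNF, the growth factors that maintain stem cell renewal. The Veh group (n = 2 libraries) stayed in complete SSC medium. The NRRA group (n = 2 libraries) was kept for 2 days, the time given in the study's methods, in nutrient restriction medium, which is mostly Earle's balanced salt solution, with retinoic acid (RA). No mutation or transgene was named for either group, and the labels do not name the culture or mouse behind a library. The reporting notes of the study call replicates of sequencing experiments independent, without naming these, and p-values here measure the spread between these libraries. The comparison asks whether RA with nutrient restriction raises the genes of the meiotic chromosome axis and of synapsis in this background. The labels list the same bFGF and GDNF concentration for every library. The study's recipe, however, makes nutrient restriction medium by diluting complete SSC medium, which holds bFGF and GDNF, in the salt solution. RA, nutrients and, by that recipe, these growth factors changed together, so the part of each cannot be told apart.

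The synaptonemal complex is the protein ladder that holds paired homologous chromosomes together during meiotic prophase. SYCP2 and SYCP3 build the axial elements along each chromosome, which become the lateral elements of the ladder, SYCP1 forms the transverse filaments between them, and SYCE1, SYCE2, SYCE3, TEX12 and SIX6OS1 make up the central element that joins the filaments in the middle. HORMAD1 and HORMAD2 sit on axes that have not yet synapsed, where they promote and monitor DNA break repair between homologs, and are removed by the ATPase TRIP13 as synapsis proceeds.

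Most of these genes were already transcribed in Veh cultures and rose modestly in NRRA. Of the 10 genes, 7 were higher and 1 was lower by the quasi-likelihood test of edgeR at a Benjamini-Hochberg threshold of 0.05, while 56.4% of all genes tested were called, 27.9% higher and 28.4% lower. Sycp3 had the largest log2 fold change of NRRA over Veh, 1.40, and the other 6 that rose lay between 0.14 and 0.57. Syce3 fell by 0.40 on the log2 scale, and no difference passed the test for Hormad2 (0.0015) and 4930447C04Rik (-0.086). The median over the 10 genes was 0.40, and 0.37 without Sycp3, against 0.00029 over all genes tested. The count of Sycp3 shares reads with an opposite-strand gene, as described below, and the calls of Syce1 and Syce3 depended on the test.

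**Figure D1:**
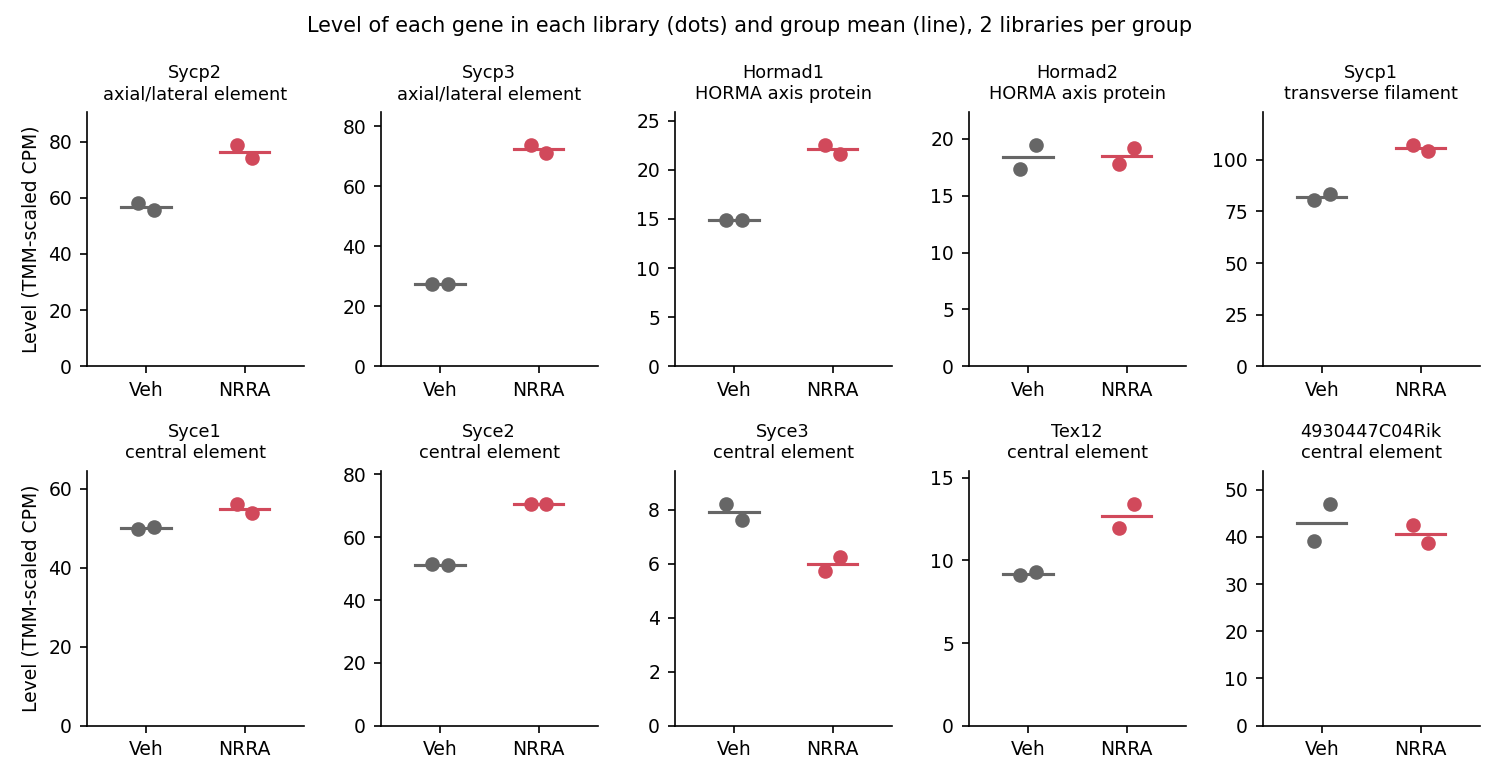
Level of each gene in each library, in CPM (counts scaled to a common library size with TMM), on axes that start at 0; dots are libraries and lines are group means (n = 2). Sycp3 rose from 27.4 CPM in both Veh libraries to 71.0 and 73.8 CPM in NRRA, whereas the groups overlapped for Hormad2 and 4930447C04Rik.

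The stretches before the transcription start were compared first, because 6 of the 10 genes shared a motif there that the choice of genes had not used. RefSeq starts on GRCm38.p6 were found for all 10 genes, and the 250 bases before each of their 13 starts were searched on both strands for 4 motifs. These were CACGTG, the E-box core read by many basic helix-loop-helix factors, CCTCAGG, the core of the motif bound by STRA8 with MEIOSIN, AGGTCA, the core read by retinoic acid receptors, and GCGGGA, the E2F core. CACGTG was present for Sycp3, Hormad1, Sycp1, Syce2, Tex12 and 4930447C04Rik, and at 7 of the 13 starts, whereas 6.02% of all 32851 promoters of the table and 9.51% of the 13032 tested genes found in it held it. For Syce2 it lay only before the downstream one of its starts, within an exon of the other. The other motifs were present for 1 (CCTCAGG), 2 (AGGTCA) and 4 (GCGGGA) of the 10 genes, against 8.33%, 13.6% and 31.8% of the tested genes. The stretches below lie before the RefSeq start, outside annotated exons, run 5′ to 3′ along the gene and show the motif matches they hold in capitals. That of 4930447C04Rik lies in an intron of a longer GENCODE model, which begins upstream at 72940774. Syce3, whose call as lower depended on the test, is printed as a gene without CACGTG.
Sycp3, chr10:88459449-88459568, plus strand: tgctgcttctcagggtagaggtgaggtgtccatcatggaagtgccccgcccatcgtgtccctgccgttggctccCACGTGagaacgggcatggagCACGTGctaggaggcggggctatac
Hormad1, chr3:95559557-95559676, plus strand: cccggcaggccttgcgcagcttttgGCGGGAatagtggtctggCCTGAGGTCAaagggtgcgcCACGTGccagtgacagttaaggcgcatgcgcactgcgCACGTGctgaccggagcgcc
Sycp1, chr3:102936101-102936220, minus strand: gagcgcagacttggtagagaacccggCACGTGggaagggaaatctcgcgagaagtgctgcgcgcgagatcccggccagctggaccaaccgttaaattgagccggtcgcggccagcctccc
Tex12, chr9:50561326-50561445, minus strand: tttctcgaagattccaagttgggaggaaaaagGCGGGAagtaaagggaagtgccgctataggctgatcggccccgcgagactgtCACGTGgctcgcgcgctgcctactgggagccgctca
4930447C04Rik, chr12:72917907-72918015, minus strand: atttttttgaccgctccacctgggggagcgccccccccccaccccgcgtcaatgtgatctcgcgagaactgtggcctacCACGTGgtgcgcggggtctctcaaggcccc
Syce3, chr15:89410504-89410623, minus strand: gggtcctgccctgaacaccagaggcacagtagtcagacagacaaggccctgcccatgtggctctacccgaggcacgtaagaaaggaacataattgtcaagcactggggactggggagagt

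Sycp3 and Hormad1 each carried 2 E-boxes close to the start. In Sycp3 they began 64 and 43 bases before it, and in Hormad1 57 and 20 bases before its upstream start. In Hormad1 the run of 10 capitals joins the reverse complement of CCTCAGG with AGGTCA, which overlap by 3 bases. Of the 7 genes called higher, 5 held CACGTG and Sycp2 and Syce1 did not. Without Sycp3, whose count includes reads shared with another gene, these were 4 of 6, and 4930447C04Rik held it without a detected change. Of the 26 partner genes of the axis and of synapsis described below, most of which rose, 18 were found among these promoters. Only 3 of those 18 (16.7%) held CACGTG. A match is a description of the sequence and was not tested for binding.

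The axial element gene Sycp2 (ENSMUSG00000060445, GRCm38 chromosome 2, minus strand) had 58.1 and 55.6 CPM in Veh replicates 1 and 2, and 78.8 and 74.0 CPM in NRRA replicates 1 and 2. Both NRRA libraries lay above both Veh libraries, as they did for 38.1% of all genes tested. The log2 fold change was 0.43 (SE 0.048, adjusted p 1.80e-08 by edgeR). SYCP2 is the partner that SYCP3 needs to form axial elements, and its exons overlap no other annotated gene, so this rise does not share reads with a neighbour.

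Sycp3 (ENSMUSG00000020059, chromosome 10, 88459569 to 88473236, plus strand), the best known marker of the meiotic axis, had 27.4 CPM in each Veh library and 73.8 and 71.0 CPM in the NRRA libraries. The log2 fold change was 1.40 (SE 0.054, adjusted p 1.07e-17 by edgeR), and among the 10 genes it was the only one past a 2-fold rise, which 6.29% of all genes tested passed with a call. The gap between the groups was far wider than the spread within either, but the level has a limit in the annotation. Exons of Chpt1, which encodes a choline phosphotransferase of phospholipid synthesis and lies on the minus strand (88452745 to 88504073), cover 660 of the 1264 exonic bases of Sycp3, or 52.2%, in 2 of its 8 exon blocks.

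Whether opposite-strand reads were counted was read from the deposited counts themselves, because the sources differ on the library. The study's methods describe a strand-selecting kit from Tecan, whereas the labels name a TruSeq RNA kit. In 139 pairs, a gene with at least 100 counts over the 4 libraries lay to at least 95% under the exons of 1 opposite-strand gene with at least 1000 counts. The log2 fold changes of the 2 genes of a pair differed by a median of 0.079 (Pearson's r = 0.94 across the 139 pairs), and the counts per base of the covered gene were a median of 1.71 times those of its partner. Adjacent opposite-strand genes without a shared exon, with the same count limits, differed by a median of 0.36 (Pearson's r = 0.24 across 2247 pairs). These correlations are across genes of the same libraries, which are not independent replicates. The counts of covered genes thus followed those of the gene on the other strand, and the reads of the stretch that Sycp3 and Chpt1 share cannot be assigned to either.

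Chpt1 itself had 756 and 870 counts in the Veh libraries, against 1825 and 1533 in NRRA, and rose by a log2 fold change of 0.91 (SE 0.061, adjusted p 1.34e-12 by edgeR). Sycp3 counts were 744 and 816 for Veh, and 2404 and 2137 for NRRA. Where a shared read was counted for both genes, the difference between the 2 counts leaves the shared reads out. This difference, Sycp3 minus Chpt1, was -12 and -54 in Veh, against 579 and 604 in NRRA. On the CPM scale it was -0.442 and -1.81 against 17.8 and 20.1. Reads of Sycp3 alone therefore numbered at least 579 and 604 in the NRRA libraries, while the Veh counts allow anything from 0 up to the full 744 and 816. The lower bounds take every Chpt1 read of the NRRA libraries to lie in the shared stretch, which makes up 7.93% of the 8324 exonic bases of Chpt1, and the upper bounds take no Chpt1 read of the Veh libraries to lie there. Where the Chpt1 reads lay within that gene was not measured here. The ranges between these bounds overlap, so neither the direction nor the size of a change in the reads of Sycp3 alone is fixed by the counts. What the counts show is that Sycp3 stood above Chpt1 in both NRRA libraries and below it in both Veh libraries.

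**Figure D2:**
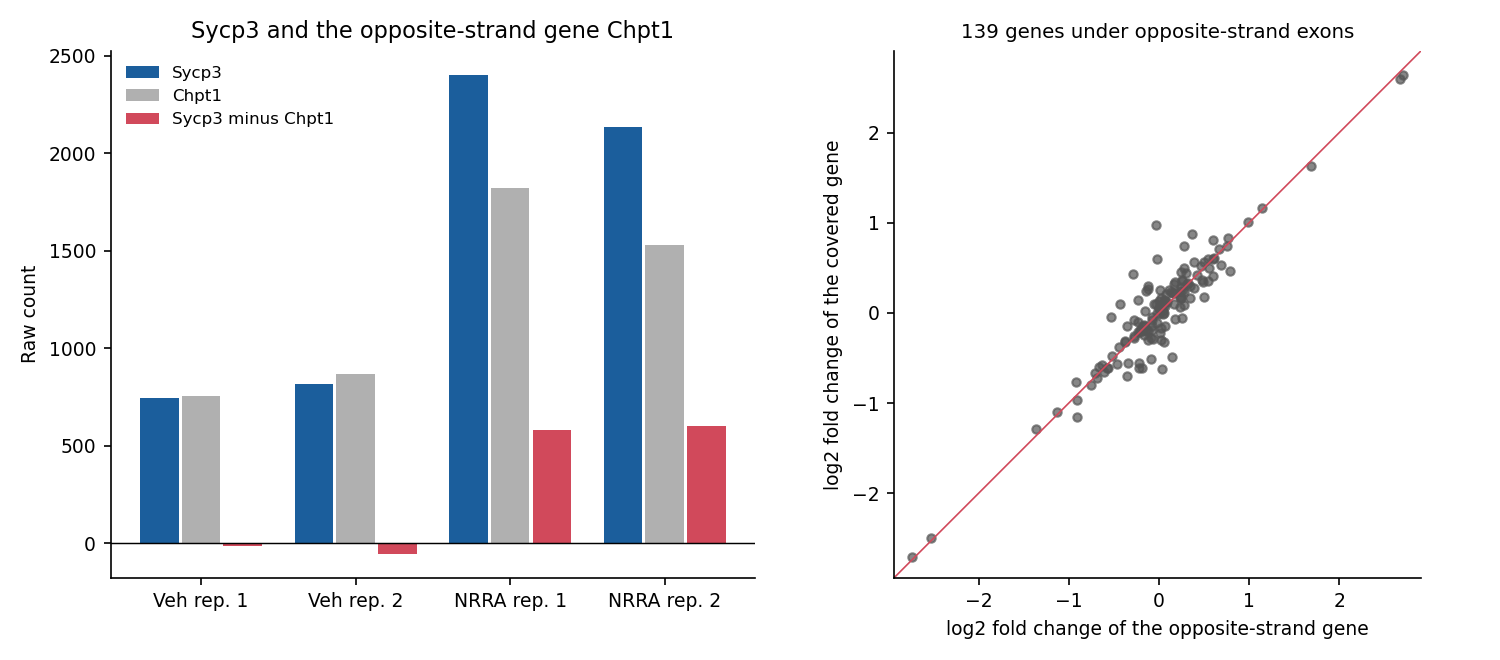
Left, raw counts of Sycp3 and Chpt1 and their difference in each library; right, log2 fold change (NRRA over Veh) of 139 genes lying under opposite-strand exons against that of the opposite-strand gene, with the line of equal values in red. The difference was -12 and -54 counts in Veh, against 579 and 604 in NRRA, and the covered genes lay along the line.

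The HORMA genes of the axis did not move together. Hormad1 (ENSMUSG00000028109, chromosome 3, plus strand), which is needed for enough meiotic breaks and for synapsis, had 14.9 CPM in both Veh libraries and 22.5 and 21.6 CPM in NRRA. It rose by a log2 fold change of 0.57 (SE 0.081, adjusted p 1.23e-06 by edgeR). A stretch of at least 100 bases with at least 95% identity in the pseudogene Gm15529 covers 61.0% of its longest transcript, and that pseudogene held 4, 4, 8 and 13 counts in the 4 libraries. Hormad2 (ENSMUSG00000020419, chromosome 11, minus strand), which serves the checkpoint for unsynapsed chromosomes, had 17.4 and 19.5 CPM in Veh and 17.8 and 19.2 CPM in NRRA. The groups overlapped, with a log2 fold change of 0.0015 (SE 0.085, adjusted p 0.99 by edgeR), and its sign changed with the libraries used. Within each library the level of Hormad1 per kilobase of exon was 1.36 and 1.21 times that of Hormad2 in Veh and 2.00 and 1.78 times in NRRA.

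The transverse filament gene Sycp1 (ENSMUSG00000027855, chromosome 3, minus strand) was the most counted of the 10 genes. It had 80.3 and 83.2 CPM in Veh and 107 and 104 CPM in NRRA, with no overlap between the groups. The log2 fold change was 0.37 (SE 0.040, adjusted p 9.76e-09 by edgeR). Its level per kilobase was 2.32 and 2.51 times that of Sycp2 in Veh and 2.28 and 2.36 times in NRRA, so that this ratio overlapped between the groups. Against Syce2 it stood at 0.861 and 0.904 times in Veh and at 0.841 and 0.817 times in NRRA, where both NRRA libraries lay below both Veh libraries. The pseudogene Sycp1-ps1 held between 1 and 7 counts in a library.

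Central element genes split. Syce2 and Tex12, whose products assemble into one fibre-forming complex, both rose. Syce2 (ENSMUSG00000003824, chromosome 8, plus strand) had 51.6 and 51.0 CPM in Veh and 70.6 CPM in both NRRA libraries, a log2 fold change of 0.46 (SE 0.047, adjusted p 3.72e-09 by edgeR). Tex12 (ENSMUSG00000032065, chromosome 9, minus strand) had 9.14 and 9.28 CPM in Veh and 11.9 and 13.4 CPM in NRRA, a log2 fold change of 0.46 (SE 0.11, adjusted p 0.000641 by edgeR). Neither gene's groups overlapped, and the difference between the changes was not tested. Per kilobase, Syce2 stood at 2.91 and 2.84 times the level of Tex12 in Veh and at 3.05 and 2.71 times in NRRA.

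The other central element genes, whose products bind near the ends of the transverse filaments, rose little, fell or showed no detected change. Syce1 (ENSMUSG00000025480, chromosome 7, minus strand) had 49.7 and 50.5 CPM in Veh and 56.2 and 53.8 CPM in NRRA, a log2 fold change of 0.14 (SE 0.051, adjusted p 0.0253 by edgeR). The call was lost with DESeq2 (adjusted p 0.149), without Veh replicate 1 (adjusted p 0.0765 by edgeR) and without NRRA replicate 1 (adjusted p 0.208 by edgeR). Syce3 (ENSMUSG00000078938, chromosome 15, minus strand) had 8.22 and 7.63 CPM in Veh and 5.74 and 6.24 CPM in NRRA, from between 187 and 227 counts in a library, the fewest of the 10 genes. Its log2 fold change was -0.40 (SE 0.13, adjusted p 0.0108 by edgeR), and this call was lost in the same settings, with adjusted p of 0.13 with DESeq2, 0.0668 without Veh replicate 1 and 0.0877 without NRRA replicate 1 (by edgeR for the left-out libraries). Both NRRA libraries nonetheless lay below both Veh libraries, as for 38.6% of all genes tested.

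4930447C04Rik (ENSMUSG00000021098, chromosome 12, minus strand), whose product binds SYCE1, had 39.0 and 47.0 CPM in Veh and 42.4 and 38.6 CPM in NRRA. The groups overlapped, and Veh replicate 2 stood above the other 3 libraries. The log2 fold change was -0.086 (SE 0.069, adjusted p 0.306 by edgeR). Without Veh replicate 1 it was -0.21 (adjusted p 0.00361 by edgeR), and without Veh replicate 2 it was 0.055 (adjusted p 0.563 by edgeR), so its value rested on which Veh library was kept. Six6 overlaps 3.21% of its exonic bases on the other strand and had at most 4 counts in a library.

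**Figure D3:**
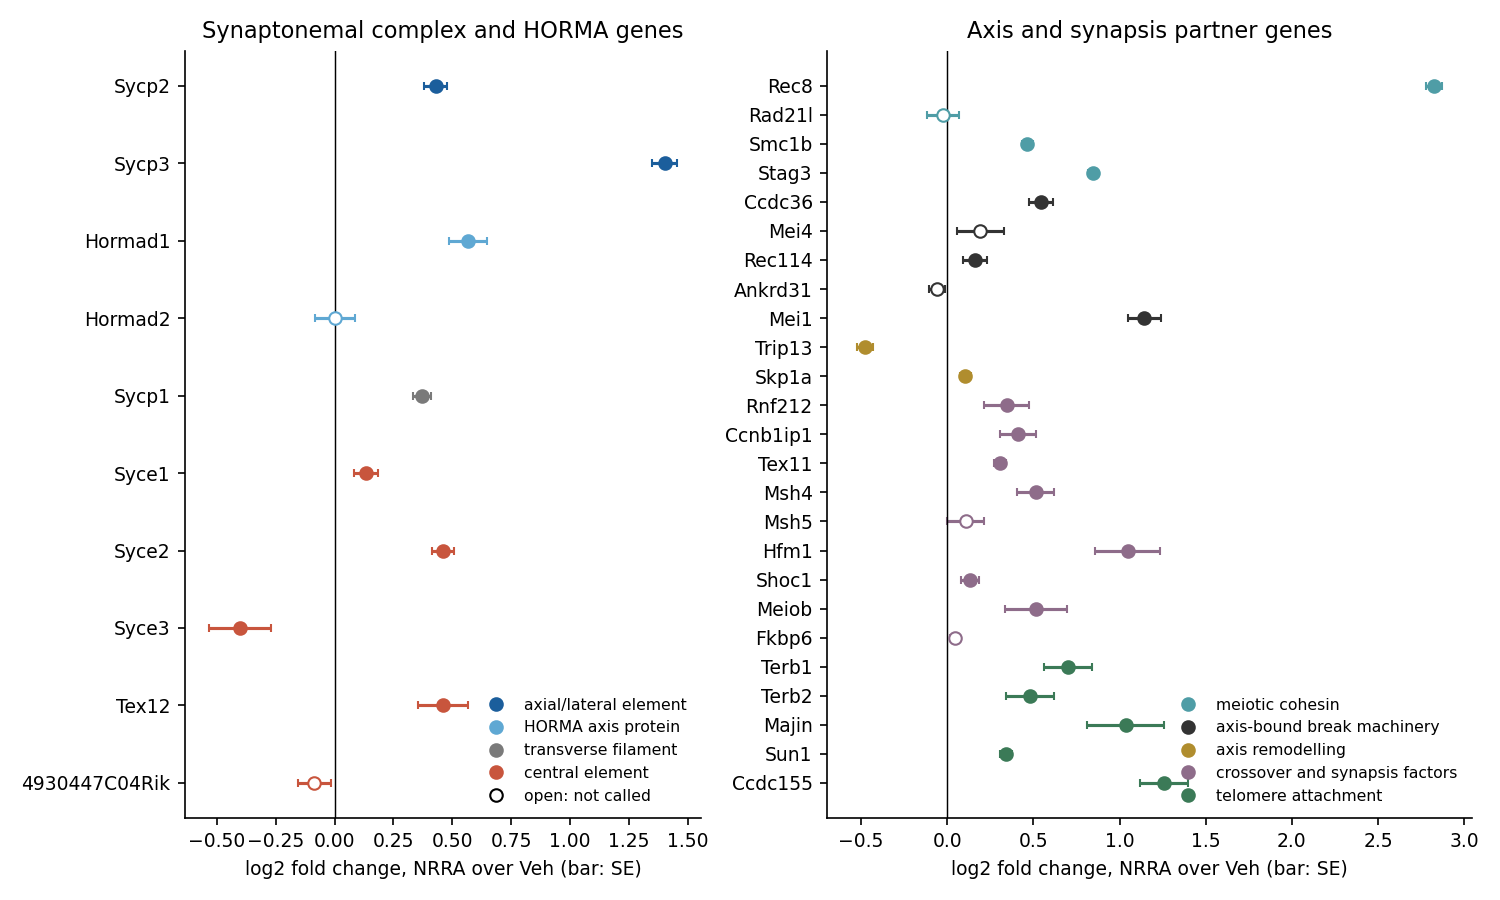
Log2 fold change of NRRA over Veh with its standard error for the 10 genes (left, coloured by part of the complex) and for 25 tested axis and synapsis partner genes (right, coloured by list); open points did not pass an edgeR adjusted p of 0.05. Sycp3 at 1.40 and Rec8 at 2.83 lay farthest to the right in their panels, and Syce3 and Trip13 were the called genes left of 0. The open points of 4930447C04Rik, Rad21l and Ankrd31 also lay left of 0.

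As counted, genes of the axis had a higher median change than those of the central element. The median log2 fold change of Sycp2, Sycp3, Hormad1 and Hormad2 was 0.50, and ranged from 0.44 to 0.55 when each NRRA library was set against each Veh library. Among these 4 genes 3 were called higher, against 27.9% higher and 28.4% lower of all genes tested. Without Sycp3, whose own change the counts do not fix, the median was 0.43, with 2 of 3 called higher, a setting chosen after the data were seen. If the reads of Sycp3 alone fell, which the counts allow, the median of the 4 would be lower still. The median of the 5 central element genes was 0.14, with 3 called higher and 1 lower, and ranged from 0.093 to 0.18 in the same way. With library size only the medians were 0.59 for the axis genes and 0.22 for the central element genes. DESeq2 called neither Syce1 nor Syce3. The classes overlapped gene by gene, since Syce2 and Tex12 at 0.46 stood above Sycp2 at 0.43 and Hormad2 at 0.0015. The difference between the classes was not tested, since genes are not replicates.

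Levels per kilobase of exon differed more between the 10 genes than between the groups. In Veh the order from the highest was Syce1 (34.3 CPM per kb), Syce2 (26.1), Sycp1 (23.0), Sycp3 (21.7), Syce3 (14.3), Sycp2 (9.52), Tex12 (9.06), Hormad1 (8.62), 4930447C04Rik (7.19) and Hormad2 (6.73). Neighbours in this order did not overlap between their 2 libraries, other than 4930447C04Rik and Hormad2. In NRRA Sycp3 came first at 57.3 CPM per kb, ahead of Syce1 (37.7), Syce2 (35.9) and Sycp1 (29.7), with the reads it shares with Chpt1 included, so that the place of Sycp3 in either order is uncertain. Sycp2 (12.8), Hormad1 (12.8) and Tex12 (12.5) then overlapped each other, Syce3 followed at 10.8, and 4930447C04Rik and Hormad2, both at 6.8 when rounded to 1 decimal, again overlapped. The exon length is the union of all annotated exons, so a gene with long unused exons appears lower than its main transcript.

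The summed level per kilobase of the 10 genes was 160 and 161 CPM per kb in Veh and 225 and 221 CPM per kb in NRRA. Sycp3, shared reads included, took 13.6% and 13.4% of that sum in Veh and 26.0% and 25.4% in NRRA. The 5 central element genes took 56.8% and 56.5% in Veh and 46.1% and 46.9% in NRRA. With Sycp3 left out of the sum, a setting added after the data were seen, their share was 65.7% and 65.3% in Veh and 62.2% and 62.9% in NRRA. Syce1 stood at 2.29 and 2.51 times Syce3 in Veh and at 3.71 and 3.27 times in NRRA, per kilobase, without overlap between the groups. This ratio was not tested, and the calls of both genes depended on the test. Within the central element the ratio of Syce1 to 4930447C04Rik also did not overlap between the groups, whereas that of Syce2 to Tex12 did.

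**Figure D4:**
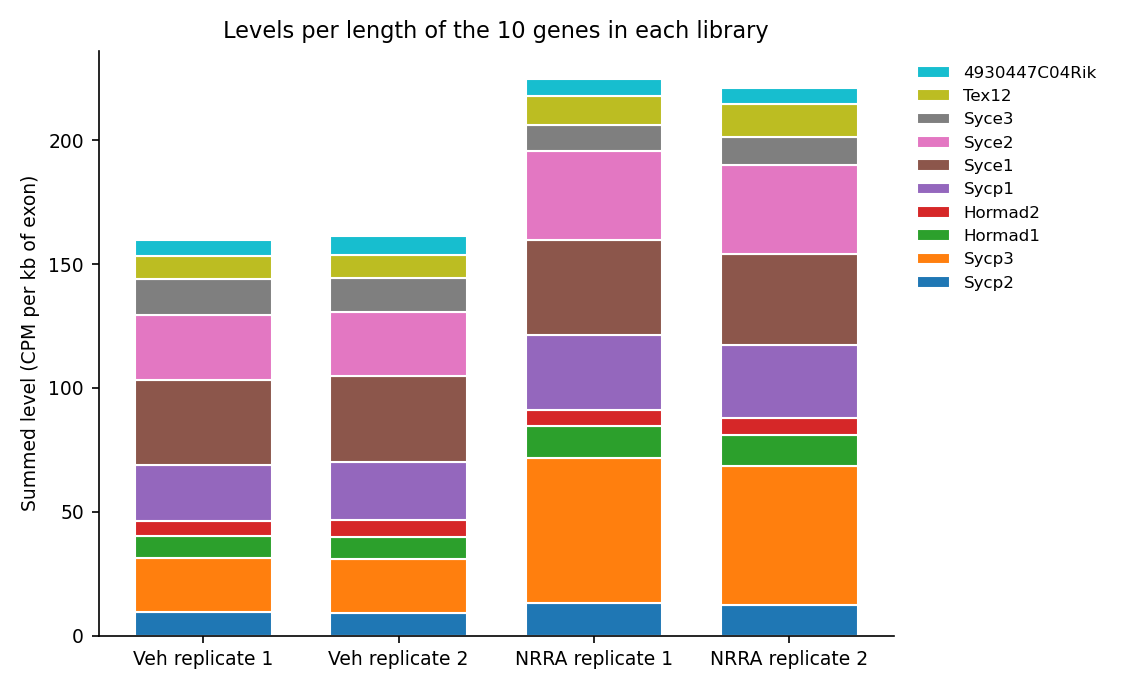
Stacked levels per kilobase of exon (CPM per kb) of the 10 genes in each library. The bars reached 160 and 161 CPM per kb in Veh and 225 and 221 CPM per kb in NRRA, and the Sycp3 segment, which includes reads shared with Chpt1, widened most.

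Most partner genes of the axis and of synapsis were also called higher. Of 26 partner genes, 25 were tested, 19 were higher and 1 was lower, with a median log2 fold change of 0.41, against 27.9% higher and 28.4% lower of all genes tested. DESeq2 called 14 of them higher and 1 lower, and over all genes 4267 higher and 4317 lower. The meiotic cohesins, which form the core of the axis, ranged widely. Rec8 rose by 2.83 (SE 0.046, adjusted p 1.43e-25 by edgeR) from 584 and 644 counts to 4994 and 4615, and Stag3 and Smc1b by 0.84 and 0.46, while the change of Rad21l was -0.026 (adjusted p 0.835 by edgeR). Among axis-bound genes of break formation, Mei1 (1.14), Ccdc36 (0.55, the gene of IHO1, which binds HORMAD1) and Rec114 (0.16) rose, and Mei4 (0.19) and Ankrd31 (-0.061) did not pass the test. Nptn covers 26.9% of the exonic bases of Rec114 on the opposite strand, which leaves that value uncertain.

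Trip13, whose product strips HORMAD proteins from synapsed axes, was the partner that fell. Its Veh counts were 1849 and 2038 and its NRRA counts 1592 and 1480, a log2 fold change of -0.48 (SE 0.047, adjusted p 2.34e-09 by edgeR). Skp1a, the ubiquitin ligase subunit tied to synapsis, rose by 0.11 (adjusted p 0.00904 by edgeR). All 5 genes that attach telomeres to the nuclear envelope rose, with log2 fold changes of 0.34 for Sun1, 0.48 for Terb2, 0.70 for Terb1, 1.03 for Majin and 1.26 for Ccdc155, the gene of KASH5. Of 9 tested crossover and synapsis factors 7 rose, the largest being Hfm1 at 1.05 and the smallest Shoc1 at 0.13. Spata22 was not tested, with at most 13 counts in a library. Gm49340, listed at 0 counts in all 4 libraries, shares 80.5% of the exonic bases of Spata22 on the same strand, so the level of Spata22 is uncertain.

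HORMA domain proteins outside meiosis and relatives of the 10 genes were read in the same fit. Mad2l2, a subunit of translesion polymerase zeta, rose by 0.91, Atg13 of the autophagy initiation complex by 0.22 and the spindle checkpoint gene Mad2l1 by 0.11. Atg101, the HORMA partner of ATG13, was at -0.12 (adjusted p 0.0636 by edgeR). Syce1l, a paralog of Syce1, fell by 0.98 on the log2 scale from 83 and 95 counts to 42 and 57. Sycp2l held between 7 and 25 counts and was not tested.

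The libraries held 28022265 to 31604769 counts in genes, and 3 counts corresponded to 0.0921 to 0.111 CPM, a limit of counting error only. Over all genes 5654 were higher and 5752 lower (27.9% and 28.4% of those tested), a split that became 6962 and 4593 with library size only. Stra8, the RA-induced gatekeeper of meiotic entry, had 261 and 300 counts in the Veh libraries, against 60702 and 55775 in NRRA, and its partner Meiosin (Gm4969) rose by 2.25 on the log2 scale. Of 12 germ cell markers 6 rose and 5 fell, and their summed level was 2620 and 2695 CPM in Veh and 2583 and 2587 CPM in NRRA. Of 15 fibroblast markers of the feeder cells 12 fell and 2 rose, against 28.4% lower and 27.9% higher of all genes tested. The 2 that rose were Col3a1 (0.61) and Pdgfra (0.98). The 15 summed to 9924 and 9794 CPM in Veh and 7596 and 7430 CPM in NRRA. Most of this sum was Fn1 alone, with 6143 and 6087 CPM in Veh and 4362 and 4352 CPM in NRRA. In such mixed samples fewer cells of a type and less RNA per cell cannot be told apart, and the part of these marker shifts in the changes above was not tested. Of 10 pachytene and spermatid markers 5 were tested, and the summed level of the 10 was 17.0 and 19.3 CPM in Veh and 19.3 and 20.2 CPM in NRRA. Of these 5, Piwil1, a PIWI protein gene, rose by 0.30 on the log2 scale from 292 and 368 counts to 446 and 449, and Tnp1, a transition protein gene of spermatids, fell by 1.39 from 19 and 34 counts to 12 and 10. Ldhc, Prm1 and Hspa1l did not pass the test, and the other 5 had at most 8 counts in any library. The 8 Sertoli cell markers summed to 35.4 and 39.5 CPM in Veh and 16.7 and 17.8 CPM in NRRA, with Sox9 the 1 of 4 tested that fell and Fshr at 0 in all 4 libraries. The 6 Leydig cell markers summed to 7.56 and 7.97 CPM in Veh and 9.58 and 9.23 CPM in NRRA. Nearly all of this was Star, with 6.97 and 7.19 CPM in Veh and 8.78 and 8.77 CPM in NRRA. Star rose by 0.31 on the log2 scale (adjusted p 0.0317 by edgeR).

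**Figure D5:**
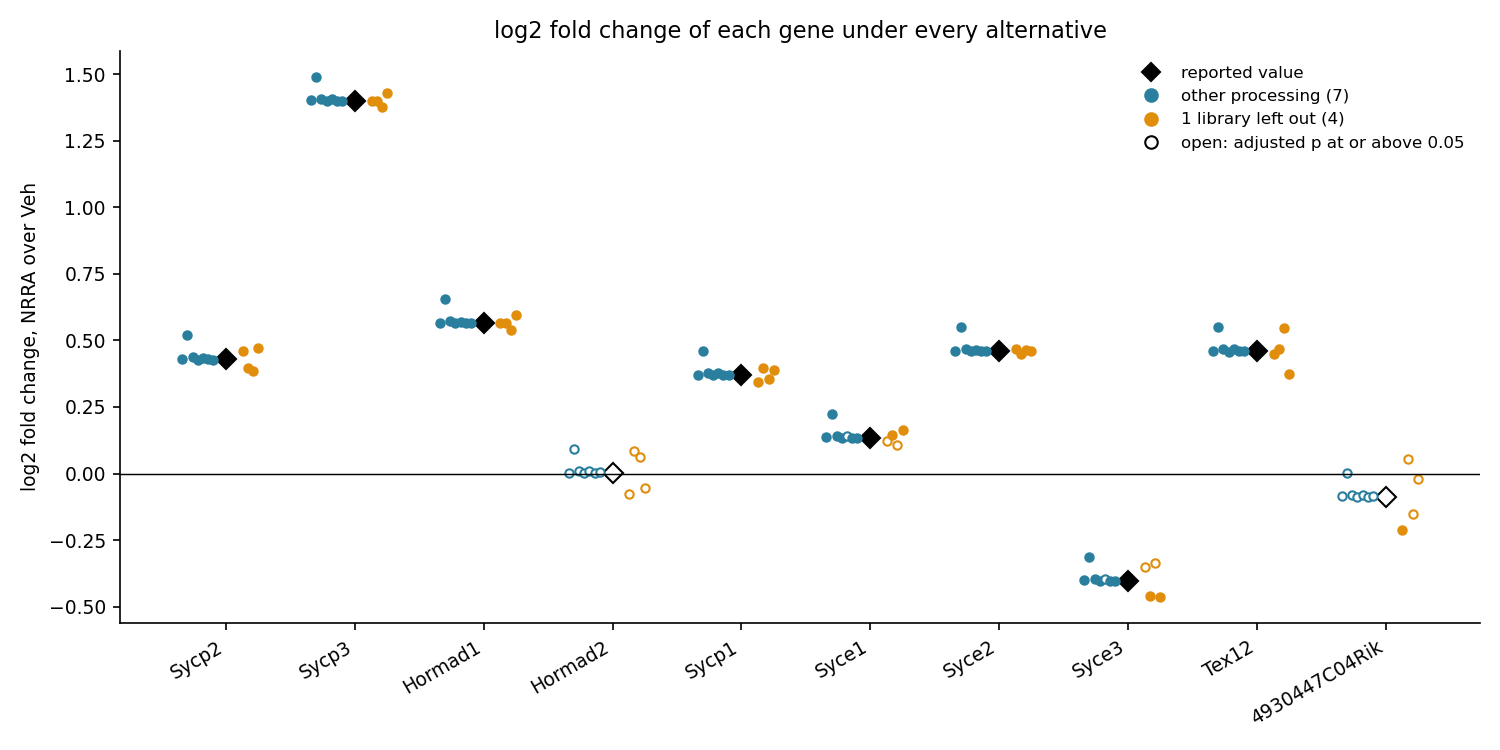
Log2 fold change of each gene as reported (black), under 7 other processing settings (blue) and with 1 library left out (orange); open points did not pass an adjusted p of 0.05. The 6 genes other than Syce1 that rose stayed past the threshold in every setting, and the points of Hormad2 and 4930447C04Rik lay on both sides of 0.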

How the data were processed

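Transcript levels were measured by poly(A) RNA-seq in 2 NRRA and 2 Veh libraries. Gene counts, not normalized, were deposited as 1 table. The submitters' processing notes name STAR 2.6.1c, featureCounts 1.6.4 and build mm10, and the annotation release and the strand setting of the counting are not given in the sources used here. The study's methods describe strand selection with a Tecan kit, and the labels name a TruSeq RNA kit. The titles number the Veh libraries 1 and 2, and the columns, matched through the sample descriptions, carry the next higher numbers.

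Counts were filtered with filterByExpr, scaled with TMM and tested by edgeR 4.0.16 (R 4.3.3, robust quasi-likelihood F test, Benjamini-Hochberg adjustment over 20232 genes, threshold 0.05). DESeq2 1.42.0, the study's tool, was an alternative, because edgeR carries the uncertainty of the dispersion with 2 libraries a group. The fit was tested on simulated data. CPM uses TMM-scaled library sizes. Positions, exon unions and overlaps came from GENCODE M21 (GRCm38), which held 99.7% of the identifiers, and near-identical stretches from BLAST. Motif starts came from RefSeq (GRCm38.p6).

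The members and lists were chosen with earlier results of these data known. Named are the 10 genes, genes overlapping them, Stra8, the called genes of each partner list with the largest and smallest change, and lists of 5 or fewer in full. Spata22, Gm49340, Gm15529, Sycp1-ps1 and single cell type markers were named after their values were seen.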

Additional observations from a re-analysis of the deposited data

How the results depend on the processing

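Of 70 values of the 10 genes under 7 other settings, 67 kept their direction and side of the threshold, as did 32 of 40 with 1 library left out. The exceptions were Syce1 and Syce3, as given above, Hormad2, which ranged from -0.077 to 0.086 over the left-out libraries, and 4930447C04Rik, which ranged from -0.21 to 0.055 and was 0.0035 with library size only. DESeq2 called 6 genes higher and 0 lower (6 and 0 at an unadjusted p under 0.05), and with a library left out 6 to 7 were called higher and 0 to 1 lower. The count of 0 came without NRRA replicate 1, where 1 gene was lower at an unadjusted p, and the 1 gene called lower without Veh replicate 1 was 4930447C04Rik in place of Syce3. Library size only raised the medians to 0.59 for axis genes, 0.22 for central element genes, 0.49 for the 10 genes, 0.46 without Sycp3 and 0.50 for the partners. With a library left out the medians ranged from 0.37 to 0.40 for the 10 genes and from 0.34 to 0.39 without Sycp3. The labels give both groups replicate numbers 1 and 2, and the main fit used no pairing by these numbers. The deviations of like-numbered libraries were not correlated (r = 0.029 over 11326 genes). With 2 libraries a group this cannot show whether libraries shared a culture or a day. The replicate block gave 5772 higher and 5836 lower genes and changed no call among the 10. With Sycp3 left out, chosen after seeing the data, the median of the axis genes was 0.43 and the central element share fell by 2.98 points from Veh to NRRA in place of 10.2. Syce3 rested on 187 to 227 counts in a library, the lowest depth of the 10 genes.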
